A study of Mus musculus with 6 samples.

Results

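The 54 genes described here encode the machinery of mitosis and of the passage from G2 into it: CDK1 and its cyclins, the mitotic kinases, the chromosomal passengers, the spindle checkpoint, the kinetochore, the spindle motors, the cytokinesis apparatus, the anaphase-promoting complex (APC/C) and its targets, and the proteins that condense chromosomes. They were chosen by gene symbol, with earlier results of these data known. Each of the 54 matched a single row of the 28822 gene identifiers in the deposited table. RNA was sequenced in bulk from mouse cells of unstated genotype, strain and age, called bone marrow-derived macrophages (BMDMs) in the title of the series, although its design text allows either BV2 microglia or BMDMs. BMDMs are macrophages grown in culture from bone marrow precursors. They were kept on a Transwell, a porous insert, over HT22 cells (neuronal cells of mouse hippocampal origin) that had gone without oxygen and glucose for 2 h. One group of 3 libraries received BW723C86, an agonist of the serotonin receptor 5-HT2B, and the other group of 3 libraries received its solvent DMSO. Both groups therefore shared the injured HT22 cells, and no group without them was analysed here. Dose, treatment length and whether the 3 libraries of a group came from separate cultures: none of these is given in the sources used here. A p-value therefore reflects only how these libraries spread, which may be technical.

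Cells enter mitosis when CDK1 bound to cyclin B becomes active, and leave it when the APC/C with its activator CDC20 marks cyclin B and securin for destruction, which frees separase to cut the cohesin that holds sister chromatids together. Condensin, topoisomerase II and Ki-67 give mitotic chromosomes their shape and keep them apart. Most of these genes are transcribed in G2 through a shared control: the MuvB complex binds a short promoter element known as the CHR, joined by B-MYB and FOXM1 in dividing cells and by DREAM repressors in resting ones. Macrophages grown from bone marrow divide in response to the growth factor CSF1 and stop dividing as they mature or are activated.

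Total counts per library lay between 58841307 and 75931615. The first principal component of the 15567 genes that passed the filter on low counts, with 56.9% of the variance, separated the groups. Levels are given as CPM, counts scaled to one common library total with TMM factors. Macrophage markers were abundant: the 10 on the list summed to 33102 to 34313 CPM with BW723C86 and 37705 to 38564 CPM with DMSO, most of it from Lyz2. Of these 10, 4 rose and 5 fell, from -1.10 (Itgam) to 0.79 (Mertk) on the log2 scale. That is 90% passing, against 42% of all tested genes. Of 12 neuronal markers, 9 were in the table. Their sum was 0.57 to 1.33 CPM with BW723C86 and 0 to 0.668 CPM with DMSO. Map2, Nefl, Dcx and Mapt were at 0 in all 6 libraries. Nes passed as higher (4.27, edgeR adjusted p = 0.0028), at very low means of 0.386 CPM with BW723C86 and 0.0171 CPM with DMSO. Syp (0.08), the other neuronal marker tested, did not pass. Markers of several other bone marrow cells differed between the groups. None of the 4 erythroid or 2 fibroblast markers tested passed, while 42% of all tested genes did. The 10 neutrophil markers summed to 708 to 813 CPM with BW723C86 and 2630 to 2708 CPM with DMSO. Mmp8 alone made up most of that sum; all 8 neutrophil markers tested fell, by log2 fold changes of -1.76 (Mmp8) to -5.87 (Ly6g). The 9 progenitor markers summed to 74.6 to 76.5 CPM with BW723C86 and 115 to 121 CPM with DMSO. Of the 7 tested, 5 fell, while Kit, the most abundant (-0.05), and Flt3 (1.09) did not pass. The 5 mast cell markers measured summed to 11.4 to 14.1 CPM with BW723C86 and 52.1 to 57.4 CPM with DMSO, and 9 lymphocyte markers to 1.68 to 1.94 CPM with BW723C86 and 5.89 to 8.04 CPM with DMSO. Cpa3 alone made up most of the mast cell sum, at a mean of 11.7 CPM with BW723C86 and 51.6 CPM with DMSO. Most of the lymphocyte sum was Cd4, at a mean of 1.38 CPM with BW723C86 and 4.49 CPM with DMSO. The part of other cell types in the results below was not tested. In bulk RNA, fewer cells in mitosis and less mitotic RNA per cell cannot be told apart.

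The promoters of 4 genes that moved furthest, with 2 for each direction, are printed here because their letters include the elements through which G2 transcription is controlled. RefSeq's promoter table (GRCm38.p6, 250 bases before to 50 after the annotated start) held a window for 45 of the 54 genes. The windows of Cenpa (chr5:30666636-30666935, plus strand) and Cdc20 (chr4:118437294-118437593, minus strand) are shown for the higher genes and those of Mki67 (chr7:135716330-135716629, minus strand) and Smc2 (chr4:52438971-52439270, plus strand) for the lower ones. They are written 5′ to 3′ on the gene's strand, with capitals for the CHR letters (TTTGAA or TTCGAA, on either strand, so also TTCAAA) and for CCAAT boxes (CCAAT or its reverse, ATTGG).
Cenpa: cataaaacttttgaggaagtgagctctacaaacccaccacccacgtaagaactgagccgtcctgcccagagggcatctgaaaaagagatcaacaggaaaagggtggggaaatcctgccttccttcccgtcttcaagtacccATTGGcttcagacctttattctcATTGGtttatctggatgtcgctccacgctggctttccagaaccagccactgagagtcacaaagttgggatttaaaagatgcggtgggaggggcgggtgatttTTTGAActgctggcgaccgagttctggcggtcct
Cdc20: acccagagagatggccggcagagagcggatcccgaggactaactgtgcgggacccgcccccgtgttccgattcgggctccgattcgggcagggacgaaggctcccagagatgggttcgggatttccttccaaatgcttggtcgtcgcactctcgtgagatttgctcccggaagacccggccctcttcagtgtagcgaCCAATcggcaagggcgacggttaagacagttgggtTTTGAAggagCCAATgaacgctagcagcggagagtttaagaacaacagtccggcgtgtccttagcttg
Mki67: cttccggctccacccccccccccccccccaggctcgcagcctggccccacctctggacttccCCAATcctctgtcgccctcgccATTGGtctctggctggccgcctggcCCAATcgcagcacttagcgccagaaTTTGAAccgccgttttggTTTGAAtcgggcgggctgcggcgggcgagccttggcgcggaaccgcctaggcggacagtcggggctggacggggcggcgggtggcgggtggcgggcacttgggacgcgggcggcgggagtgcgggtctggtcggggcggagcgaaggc
Smc2: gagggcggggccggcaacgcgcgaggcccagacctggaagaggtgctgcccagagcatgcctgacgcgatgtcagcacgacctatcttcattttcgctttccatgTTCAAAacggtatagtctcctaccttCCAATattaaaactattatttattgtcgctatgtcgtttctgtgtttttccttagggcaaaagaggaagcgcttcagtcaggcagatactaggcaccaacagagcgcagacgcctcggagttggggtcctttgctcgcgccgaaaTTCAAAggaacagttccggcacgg
In Cdc20 the CHR letters began at position -18 from the start base and CCAAT at -53 and -8, whereas Mki67 had CHR letters at -116 and -98 and CCAAT boxes at -188, -166 and -141. Cenpa had its CHR letters downstream of the start, at 16, with CCAAT boxes at -109 and -86, and Smc2 had them at -145 and 26 with a CCAAT box at -119. The CHR and CCAAT letters do not overlap each other in these windows.

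Over all 45 windows, the CHR letters were found in 36, or 80%, against 21.7% of the 27025 genes with a window. CCAAT boxes were found in 33, or 73.3%, against 41.1% of all genes. The E2F letters (TTTCCCGC or TTTGGCGC, on either strand) were found in 3, or 6.67%, against 1.8% of all genes. By direction of change, CHR letters were found in 12 of 16 genes that rose with BW723C86, in 6 of 6 that fell and in 18 of 23 that did not pass the test. A match is a description of letters in this window and not evidence of binding.

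The question the design asks is what the 5-HT2B agonist does to the RNA of these cells, and the mitotic genes did not move as a block. With BW723C86, 19 of the 54 rose and 7 fell, while 28 did not pass the test (edgeR's quasi-likelihood test, Benjamini-Hochberg adjusted p under 0.05 over the 15567 genes tested). In all tested genes, 42% passed, with 21.3% higher and 20.7% lower, so the 48.1% of mitotic genes that passed was near the background, while the direction was less even: 73.1% of those that passed were higher, against 50.8% of all genes that passed. The median log2 fold change of the 54 was 0.18, against 0.00 over all tested genes; without BW723C86 replicate 2 it was 0.10. Scaling by library totals alone gave 13 higher and 10 lower (56.5% higher) in place of 19 and 7. With that scaling the median over all tested genes moved too, from 0.00 to -0.07. The 6 calls that ended were those of Ccna2, Ccnb2, Aurka, Mad2l1, Cdca8 and Ncapd2, and the 3 gained were Cenpf, Kif20b and Anln. The changes were small, with a median size of 0.33 on the log2 scale among the genes that passed, against 0.45 for all genes that passed, and none exceeded 0.64. All 54 passed the filter on low counts, with mean levels from 2.23 to 75.9 CPM and no count below 91.

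**Figure D1:**
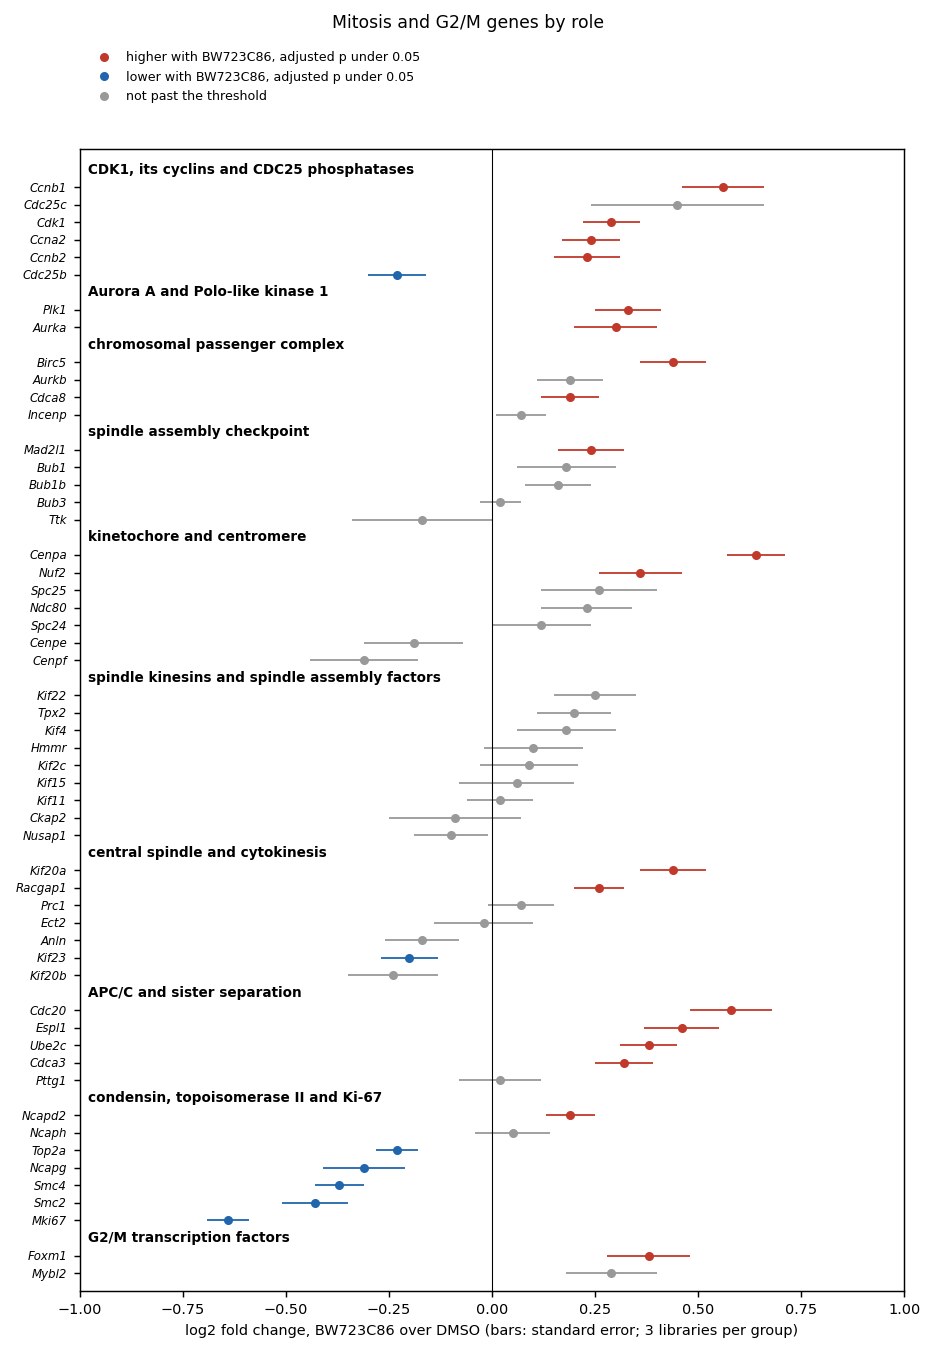
Log2 fold change, BW723C86 over DMSO, of the 54 mitosis and G2/M genes, grouped by role, with standard errors as bars; red and blue mark adjusted p under 0.05 and grey the rest. Cdk1, the cyclin genes, Plk1, Aurka and 4 of the 5 APC/C and sister separation genes lie to the right of 0 and passed, as did Cenpa at 0.64, and condensin genes and Mki67 mostly to the left, down to -0.64.

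The most pronounced fall was in Mki67, which encodes Ki-67, the surface coat of mitotic chromosomes that is widely used as a marker of proliferating cells. Mki67 stood at 61.3, 58.0 and 58.5 CPM with BW723C86, against 90.2, 89.7 and 97.8 CPM with DMSO. Every BW723C86 library was well below every DMSO library. The means were 59.3 ± 1.74 CPM with BW723C86 and 92.6 ± 4.54 CPM with DMSO (SD, n = 3 each), a log2 fold change of -0.64 ± 0.05 (SE; edgeR adjusted p = 5.5e-07), or 0.64 of the DMSO level.

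In condensin, the ring complex that compacts chromosomes, the genes of the ATPase pair SMC2 and SMC4 fell. Smc2 was at 18.2, 20.8 and 18.2 CPM with BW723C86 and at 27.4, 25.0 and 24.5 CPM with DMSO (log2 fold change -0.43 ± 0.08, SE; edgeR adjusted p = 0.00079). Smc4 was at 37.4, 38.4 and 36.3 CPM with BW723C86 and at 49.4, 45 and 50.3 CPM with DMSO (-0.37 ± 0.06; edgeR adjusted p = 0.00027). Neither gene's groups overlapped. Top2a, the topoisomerase that untangles sister DNA, gave 65.0, 69.0 and 65.8 CPM with BW723C86 and 77.5, 77.2 and 78.9 CPM with DMSO, a fall of smaller size (-0.23 ± 0.05; edgeR adjusted p = 0.0021) with no overlap. Ncapg, a HEAT-repeat subunit of condensin I, averaged 7.98 ± 0.422 CPM with BW723C86 and 9.88 ± 0.764 CPM with DMSO (-0.31; edgeR adjusted p = 0.029); leaving out BW723C86 replicate 1 or 2 or DMSO replicate 1 or 3 ended its call, at -0.26 to -0.30 and adjusted p of 0.054 to 0.12. With the trends on GC content and length removed in each library, an alternative chosen after seeing the data, Ncapg did not pass (-0.09, adjusted p = 0.53), and Smc2 (-0.21), Smc4 (-0.17) and Top2a (-0.15) passed with smaller falls.

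The other condensin I subunits did not follow. Ncapd2, also a HEAT-repeat subunit, rose slightly, with 56.9, 53.6 and 59.3 CPM with BW723C86 and 50.5, 52.7 and 46.0 CPM with DMSO (0.19; edgeR adjusted p = 0.032), a call that ended without BW723C86 replicate 1 or 3 or DMSO replicate 1 or 3 (0.13 to 0.20, adjusted p of 0.065 to 0.17), with library totals (0.11, adjusted p = 0.17) and with those trends removed (0.08, adjusted p = 0.26). Ncaph, the kleisin that closes the ring, was at 20.1, 22.3 and 18.6 CPM with BW723C86 and at 18.2, 21.8 and 19.0 CPM with DMSO and did not pass (0.05; edgeR adjusted p = 0.7). Ncapd3 (-0.10, edgeR adjusted p = 0.3) and Ncapg2 (-0.06, edgeR adjusted p = 0.59), which encode condensin II subunits, did not pass either. Summed over the 7 genes of condensin, topoisomerase II and Ki-67, the level was 267 ± 2.35 CPM with BW723C86 and 324 ± 3.27 CPM with DMSO (SD, n = 3 each), a log2 ratio of -0.28. That sum includes Mki67, at means of 59.3 CPM with BW723C86 and 92.6 CPM with DMSO. It also includes Top2a, at 66.6 CPM with BW723C86 and 77.9 CPM with DMSO. The condensin genes alone were not summed.

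**Figure D2:**
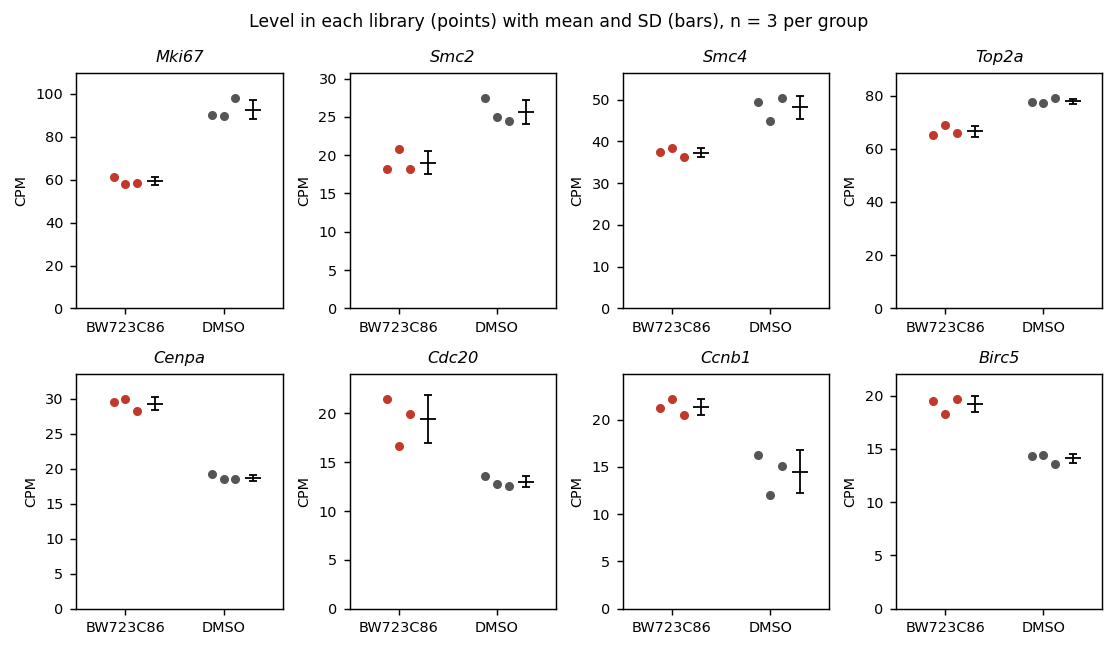
CPM in each library (points) with mean and SD (bars, n = 3 per group) for 4 genes that fell with BW723C86 (upper row) and 4 that rose (lower row), BW723C86 left of DMSO on linear axes from 0. The 3 BW723C86 libraries lie on one side of the 3 DMSO libraries in all 8 panels, between 58.0 and 61.3 CPM for Mki67 against 89.7 to 97.8 CPM with DMSO.

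In the opposite direction, the largest rise was in Cenpa, which encodes the histone H3 variant that marks the centromere. Cenpa was at 29.6, 30.0 and 28.3 CPM with BW723C86 and at 19.2, 18.6 and 18.5 CPM with DMSO. The libraries of each group were tightly spaced and far from the other group's. The means were 29.3 ± 0.916 CPM with BW723C86 and 18.7 ± 0.414 CPM with DMSO (SD, n = 3 each), a log2 fold change of 0.64 ± 0.07 (SE; edgeR adjusted p = 4.3e-06). Of the other 6 genes of the kinetochore and centromere, only Nuf2 passed. With Cenpa, 28.6% of the 7 passed, against 42% of all tested genes. Nuf2, a subunit of the NDC80 complex that grips microtubules, was at 11.1, 10.9 and 10 CPM with BW723C86 and at 8.45, 7.91 and 8.49 CPM with DMSO (0.36 ± 0.10; edgeR adjusted p = 0.0084). Its partner Ndc80 was at 6.92, 7.28 and 6.92 CPM with BW723C86 and at 6.37, 5.92 and 5.76 CPM with DMSO, without overlap but short of the threshold (0.23; edgeR adjusted p = 0.13). The other NDC80 subunits, Spc24 (0.12) and Spc25 (0.26), did not pass either. Cenpe, a kinesin of the kinetochore, was at 9.37, 8.66 and 7.28 CPM with BW723C86 and at 9.91, 10.5 and 8.43 CPM with DMSO, with overlap (-0.19; edgeR adjusted p = 0.25). Cenpf, a large protein of the outer kinetochore, was lower in every BW723C86 library but did not pass (-0.31; edgeR adjusted p = 0.068); it passed with library totals (-0.39, adjusted p = 0.026) and without BW723C86 replicate 2 (-0.40, adjusted p = 0.031).

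Cdk1 and the 3 cyclin genes of the list rose, each by less than 1.5-fold, while 21.3% of all tested genes rose. With scaling by library totals alone, the calls of Ccna2 (0.17, adjusted p = 0.065) and Ccnb2 (0.16, adjusted p = 0.15) ended, and those of Cdk1 and Ccnb1 held. Ccnb1, cyclin B1, had 21.2, 22.2 and 20.5 CPM with BW723C86, against 16.3, 12 and 15.1 CPM with DMSO. Its DMSO libraries varied more than its BW723C86 libraries, and the groups did not overlap (log2 fold change 0.56 ± 0.10, SE; edgeR adjusted p = 0.0008). Cdk1, the kinase itself, had 28.8, 28.3 and 25.8 CPM with BW723C86, against 22.7, 22.0 and 23.1 CPM with DMSO (0.29 ± 0.07; edgeR adjusted p = 0.0041). Ccna2, cyclin A2, which acts in S phase and at mitotic entry, had 32.8, 32.5 and 29.5 CPM with BW723C86, against 26.4, 25.9 and 27.9 CPM with DMSO (0.24; edgeR adjusted p = 0.011), and without DMSO replicate 2 its adjusted p was 0.053. Ccnb2, cyclin B2, had 21.7, 22.2 and 22.7 CPM with BW723C86, against 19.5, 16.6 and 20.4 CPM with DMSO. Again no library crossed over, but the call was marginal (0.23; edgeR adjusted p = 0.039) and ended when any library other than DMSO replicate 3 was left out (0.15 to 0.26, adjusted p of 0.057 to 0.16) or when the trends on GC content and length were removed (adjusted p = 0.06). Ccnb1 and Ccnb2 have annotated pseudogenes that may share reads with them.

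The CDC25 phosphatases remove the inhibitory phosphates from CDK1, and their genes on the list had log2 fold changes of opposite sign. Cdc25b fell, with 39.0, 33.7 and 37.8 CPM with BW723C86 and 42.9, 46.3 and 40.7 CPM with DMSO (-0.23; edgeR adjusted p = 0.017), although without DMSO replicate 2 the call ended (-0.19, adjusted p = 0.092). Cdc25c averaged 2.57 ± 0.315 CPM with BW723C86 and 1.88 ± 0.343 CPM with DMSO and did not pass (0.45 ± 0.21, edgeR adjusted p = 0.099). Every BW723C86 library of Cdc25c was above every DMSO library, at a low level.

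Of the 5 genes of the APC/C and sister separation, 4 rose and Pttg1 did not pass, while 21.3% of all tested genes rose. Cdc20, the APC/C activator, was at 21.5, 16.7 and 19.9 CPM with BW723C86 and at 13.6, 12.8 and 12.6 CPM with DMSO. BW723C86 replicate 2 was the lowest of its group and still above all DMSO libraries (0.58 ± 0.10; edgeR adjusted p = 0.00037). Ube2c, the ubiquitin-conjugating enzyme that works with the APC/C, was at 24.4, 26.7 and 23.1 CPM with BW723C86 and at 19.0, 19.5 and 18.6 CPM with DMSO (0.38 ± 0.07; edgeR adjusted p = 0.0012). Espl1, which encodes separase, was at 15.2, 15.7 and 16.9 CPM with BW723C86 and at 12.2, 11.8 and 10.7 CPM with DMSO (0.46 ± 0.09; edgeR adjusted p = 0.00095). Neither of those genes overlapped between groups. Cdca3, which promotes mitotic entry and is itself an APC/C target, averaged 25.8 ± 0.365 CPM with BW723C86 and 20.6 ± 1.66 CPM with DMSO (0.32; edgeR adjusted p = 0.0033). Securin, the inhibitor of separase, is encoded by Pttg1, which was at 16.1, 14.4 and 16.1 CPM with BW723C86 and at 13.1, 17.4 and 15.4 CPM with DMSO. The DMSO libraries enclosed the BW723C86 ones, and no difference passed (0.02; edgeR adjusted p = 0.9). The group summed to 101 ± 1.66 CPM with BW723C86 and 79.5 ± 3.39 CPM with DMSO, a log2 ratio of 0.35.

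Among the mitotic kinases, Plk1, which drives centrosome maturation and mitotic entry, was at 24.7, 22.3 and 24.6 CPM with BW723C86 and at 18.7, 20.9 and 17.2 CPM with DMSO. All BW723C86 libraries were above all DMSO libraries (0.33 ± 0.08; edgeR adjusted p = 0.0063). Aurka, the spindle-pole kinase Aurora A, was at 17.7, 13.6 and 14.6 CPM with BW723C86 and at 12.8, 12 and 12.4 CPM with DMSO. Its rise leaned on BW723C86 replicate 1: the log2 fold change of 0.30 (edgeR adjusted p = 0.032) became 0.18 without it (adjusted p = 0.16), and leaving out BW723C86 replicate 3 or any of the 3 DMSO libraries gave 0.27 to 0.32 with adjusted p of 0.055 to 0.11. Library totals also ended the call (0.22, adjusted p = 0.08), as did removal of the GC and length trends (0.20, adjusted p = 0.11).

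The chromosomal passenger complex corrects faulty attachments with Aurora B and steers cytokinesis. Its subunit survivin, encoded by Birc5, was at 19.5, 18.3 and 19.7 CPM with BW723C86 and at 14.3, 14.4 and 13.6 CPM with DMSO, far apart in all libraries (0.44 ± 0.08; edgeR adjusted p = 0.00045). Cdca8, which encodes borealin, rose less, with 25.0, 23.6 and 25.0 CPM with BW723C86 and 21.1, 22.1 and 21.3 CPM with DMSO (0.19; edgeR adjusted p = 0.034), and leaving out any library other than BW723C86 replicate 2 ended its call (0.17 to 0.21, adjusted p of 0.052 to 0.12), as did library totals (0.12, adjusted p = 0.19) and removal of the GC and length trends (0.09). Aurkb, the kinase, was at 22.7, 20.0 and 23.5 CPM with BW723C86 and at 18.3, 20.5 and 19.2 CPM with DMSO, with overlap (0.19; edgeR adjusted p = 0.078). It passed without BW723C86 replicate 2, at 0.24 and adjusted p = 0.018. Incenp, the scaffold of the complex, did not pass (53.3 ± 0.629 CPM with BW723C86 and 50.7 ± 2.76 CPM with DMSO; edgeR adjusted p = 0.34).

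The spindle assembly checkpoint, which holds the APC/C back until every kinetochore is attached, passed in 1 of 5 genes, while 42% of all tested genes passed. Mad2l1, the checkpoint effector MAD2, was at 20.2, 22.9 and 21.1 CPM with BW723C86 and at 17.9, 17.5 and 18.9 CPM with DMSO, without overlap (0.24; edgeR adjusted p = 0.02). That call ended without BW723C86 replicate 2 or 3 or DMSO replicate 1 or 2 (0.18 to 0.25, adjusted p of 0.057 to 0.077) and with library totals (0.17, adjusted p = 0.1). The checkpoint kinase Bub1 was at 11.0, 9.69 and 8.24 CPM with BW723C86 and at 8.97, 7.49 and 8.97 CPM with DMSO. The spread within its groups exceeded the gap between them (0.18 ± 0.12; edgeR adjusted p = 0.27). Bub1b (0.16), which encodes the inhibitor BUBR1, Bub3 (0.02), which recruits both to kinetochores, and the kinase gene Ttk (-0.17) did not pass. Without DMSO replicate 3 Bub1b passed (0.24, adjusted p = 0.038), and with the GC and length trends removed Bub1 and Bub3 did.

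None of the 9 genes of spindle kinesins and spindle assembly factors passed by the main edgeR test, DESeq2 or limma-voom. By the main test 42% of all tested genes passed. Of the 9, 1 gene, Kif22, had an unadjusted edgeR p under 0.05. Kif22, which pushes chromosome arms outward, was at 17.4, 16.5 and 18.3 CPM with BW723C86 and at 15.6, 12.6 and 15.8 CPM with DMSO. It did not overlap, and its log2 fold change was 0.25 ± 0.10 (edgeR adjusted p = 0.057). Kif22 passed by edgeR with counts divided by 4 (adjusted p = 0.043), with a minimum of 5 CPM (adjusted p = 0.037), with upper-quartile scaling (adjusted p = 0.05 after rounding) and without BW723C86 replicate 2 (adjusted p = 0.049). Kif11, the motor that makes the spindle bipolar, was at 18.7, 18.6 and 18.0 CPM with BW723C86 and at 18.1, 19.6 and 17.0 CPM with DMSO (0.02 ± 0.08; edgeR adjusted p = 0.9). Kif2c, which depolymerises microtubules, was at 8.74, 10.5 and 10 CPM with BW723C86 and at 9.65, 7.94 and 9.87 CPM with DMSO (0.09; edgeR adjusted p = 0.57). The groups of both genes were mixed. The remaining 6 were the activator of Aurora A Tpx2 (0.20), the chromokinesin Kif4 (0.18), the microtubule-binding genes Hmmr (0.10), Ckap2 (-0.09) and Nusap1 (-0.10), and the kinesin Kif15 (0.06).

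Of 7 cytokinesis genes, 2 rose and 1 fell (42.9% passed, near the 42% of all tested genes). Kif20a, the kinesin that carries the passenger complex to the central spindle, was at 25.0, 28.6 and 25.7 CPM with BW723C86 and at 20.3, 18.5 and 19.7 CPM with DMSO (0.44 ± 0.08; edgeR adjusted p = 0.00042). The RACGAP1 and KIF23 proteins together form centralspindlin, which bundles the midzone, and their genes moved apart. Racgap1 was at 39.0, 39.5 and 40.1 CPM with BW723C86 and at 33.8, 30.7 and 34.4 CPM with DMSO (0.26 ± 0.06; edgeR adjusted p = 0.0041). Kif23 was at 16.2, 16.8 and 17.0 CPM with BW723C86 and at 19.4, 19.1 and 18.9 CPM with DMSO (-0.20 ± 0.07; edgeR adjusted p = 0.039). No library of either gene crossed into the other group, but the Kif23 call ended when any library other than BW723C86 replicate 2 was left out (-0.18 to -0.22, adjusted p of 0.066 to 0.11). Kif20b (-0.24), Anln (-0.17), Ect2 (-0.02) and Prc1 (0.07) did not pass; they encode a midzone kinesin, the ring scaffold anillin, the activator of RhoA and the microtubule cross-linker of the midzone. With library totals Kif20b (-0.32, adjusted p = 0.032) and Anln (-0.25, adjusted p = 0.034) passed, and Anln also passed without BW723C86 replicate 2 (-0.23, adjusted p = 0.046) or DMSO replicate 2 (-0.27, adjusted p = 0.02).

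Of the factors that transcribe these genes, Foxm1 was at 17.1, 14.3 and 16.9 CPM with BW723C86 and at 13.7, 11.6 and 11.7 CPM with DMSO. The lowest BW723C86 library stood just above the highest DMSO library (0.38 ± 0.10; edgeR adjusted p = 0.008). Mybl2, which encodes B-MYB, was at 10.8, 8.49 and 9.91 CPM with BW723C86 and at 8.21, 7.66 and 8.06 CPM with DMSO, also without overlap, but missed the threshold (0.29 ± 0.11; edgeR adjusted p = 0.054). It passed with upper-quartile scaling (adjusted p = 0.048), a minimum of 5 CPM (adjusted p = 0.039), counts divided by 4 (adjusted p = 0.047) and without BW723C86 replicate 2 (0.36, adjusted p = 0.015).

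**Figure D3:**
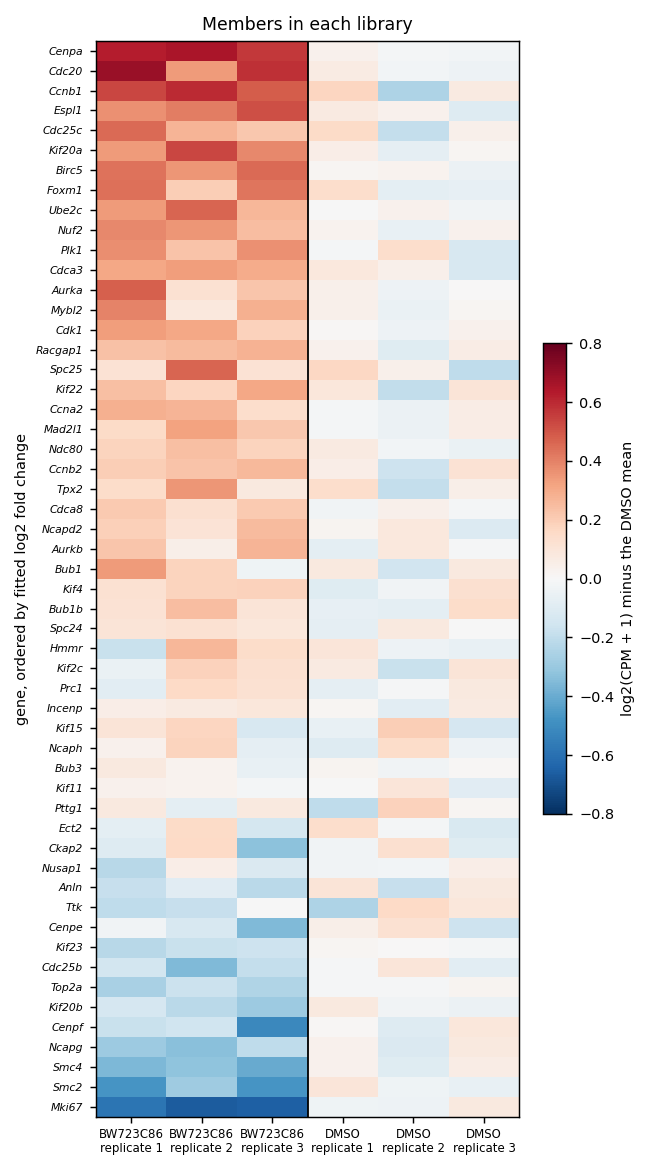
Deviation of each gene in each library from its DMSO mean, on the log2(CPM + 1) scale, with the 54 genes in rows ordered by fitted log2 fold change, BW723C86 columns left of DMSO columns. The upper rows are red and the lowest rows blue in all 3 BW723C86 columns, and the medians over the 54 genes are 0.12, 0.17 and 0.12 in the BW723C86 libraries and 0.03, -0.03 and 0.01 in the DMSO libraries.

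The overlap of the groups and the fits that leave out a library are given next as a description. Non-overlap and the main test rest on the same 6 libraries, so the first adds no support to the second. For the fits that leave out a library, the matching share of all genes that passed is not given here. In 33 genes, or 61.1%, the libraries of the groups did not overlap, 24 higher and 9 lower with BW723C86; over all tested genes this held for 52.3%, with 26.3% higher and 26% lower. Those 33 were the 26 that passed and Cdc25c, Kif22, Mybl2, Ndc80, Spc24, Cenpf and Kif20b. Calls held in each of the 6 fits that leave out a library for 13 genes that rose (Cdk1, Ccnb1, Plk1, Birc5, Cenpa, Nuf2, Kif20a, Racgap1, Cdc20, Ube2c, Espl1, Cdca3 and Foxm1) and for 4 that fell (Mki67, Top2a, Smc2 and Smc4). Tested against a fold change of 1.2, 6 were higher (Cenpa, Cdc20, Ccnb1, Kif20a, Birc5 and Espl1, with edgeR adjusted p of 8.7e-05 to 0.03) and 2 were lower (Mki67, adjusted p = 1.3e-05, and Smc2, adjusted p = 0.041), while in all tested genes 10.3% were higher and 10.3% lower by that test. Replicates varied by a median of 6.08% (coefficient of variation over the 54 genes) with BW723C86 and 6.55% with DMSO.

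Summed to a single level, the 54 genes differed little between groups. The 54 genes together gave 1190, 1200 and 1170 CPM with BW723C86 and 1155, 1123 and 1151 CPM with DMSO. The groups did not overlap, yet the means of 1187 ± 15.6 CPM with BW723C86 and 1143 ± 17.1 CPM with DMSO (SD, n = 3 each) differed by a log2 ratio of only 0.05. With scaling by library totals the ratio was -0.019, and the median log2 fold change over all tested genes was -0.07. Without Mki67 the sums were 1127 ± 15.6 CPM with BW723C86 and 1050 ± 15.6 CPM with DMSO, a log2 ratio of 0.10. Ratios within a library are given as a description only, since the genes were chosen for changes in opposite directions. They are ratios of CPM without correction for transcript length, so they do not rank the genes by level. Per kb of the longest coding transcript, Mki67 was at 5.89 CPM with BW723C86 and 9.2 CPM with DMSO. In the same order, Ccnb1 was at 8.56 and 5.81 and Cenpa at 20 and 12.8. Mki67 was 2.88, 2.61 and 2.86 times Ccnb1 with BW723C86, against 5.53, 7.5 and 6.46 times with DMSO, and 2.07, 1.93 and 2.07 times Cenpa with BW723C86, against 4.69, 4.84 and 5.30 times with DMSO.

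Levels can be compared between genes only per transcript length. In CPM per kb of the longest coding transcript, Bub3 was the highest of the 54, at 22.0 with BW723C86 and 21.7 with DMSO. Cenpa stood at 20.0 CPM per kb with BW723C86 and 12.8 with DMSO, and Top2a at 12.8 with BW723C86 and 14.9 with DMSO. The lowest was Cenpf, at 0.624 CPM per kb with BW723C86 and 0.776 with DMSO. Transcript make-up moved with the change: genes that rose had a median GC content of 50.1% and a median length of 2.49 kb, those that fell 43.4% and 4.32 kb, and all tested genes 50.0% and 2.75 kb. Across the 54 genes the log2 fold change had a Spearman correlation of 0.54 with GC content and -0.47 with length, and across 15188 tested genes 0.20 with GC content and 0.00 with length; these are correlations across genes of the same 6 libraries, and genes are not independent replicates.

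**Figure D4:**
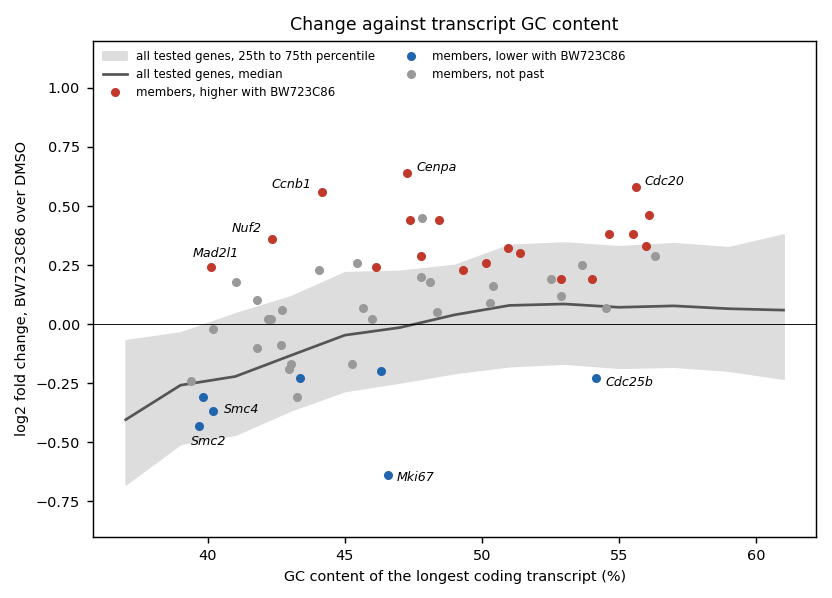
Log2 fold change, BW723C86 over DMSO, against the GC content (%) of the longest coding transcript: points are the 54 genes, the line and band are the median and the 25th to 75th percentile of all tested genes. Smc2 and Smc4 lie at low GC content inside the band, while Mki67 (-0.64 at 46.56% GC) and Cenpa, Cdc20 and Ccnb1 lie outside it.

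With the trends of count on GC content and length removed in each library, 17 genes were higher and 6 lower, of which 15 and 6 had passed before, while 21.2% of all tested genes were higher and 22.2% lower. The calls of Ccnb2 (adjusted p = 0.06), Aurka (adjusted p = 0.11), Cdca8 (adjusted p = 0.27), Ncapd2 and Ncapg ended, and Bub1 (0.35, adjusted p = 0.03) and Bub3 (0.13, adjusted p = 0.034) passed, all by edgeR. The rise of Mad2l1 became larger (0.48). The Spearman correlations across the 54 genes were then 0.21 with GC content and -0.35 with length.

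Other genes of the division cycle were read from lists drawn up by function. Of 58 further mitosis genes, 14 rose and 8 fell (37.9% passed, below the 42% of all tested genes; median log2 fold change 0.13), those of smallest p being the centrosome kinase gene Nek2 (9.51 ± 0.637 CPM with BW723C86 and 5.18 ± 0.95 CPM with DMSO; 0.87), the spindle gene Spag5 (0.55) and the kinesin gene Kifc1 (0.50). Among 16 APC/C subunits and cofactors, 3 rose and 3 fell (37.5% passed, against 42% of all tested genes; median 0.05). Anapc5, an APC/C platform subunit, rose the furthest, at 188 ± 1.86 CPM with BW723C86 and 131 ± 1.78 CPM with DMSO (0.52; edgeR adjusted p = 4.9e-07), followed in p by Anapc16 (0.25) and Anapc1 (0.18), whose call ended without DMSO replicate 2 (0.17) and with library totals (0.11). Cohesin, the ring that holds sister chromatids, and its loaders fell in 8 of 10 genes and rose in 1 (90% passed, against 42% of all tested genes; median -0.35). Smc3, one of the cohesin ATPases, was at 26.9 ± 2.04 CPM with BW723C86 and 40.9 ± 1.45 CPM with DMSO (-0.61), Stag2, a regulatory subunit, fell by as much (-0.61), and Wapl, the cohesin release factor, fell by less (-0.34). With the trends on GC content and length removed, 7 cohesin genes were lower and none higher, and the falls were smaller: -0.50 for Smc3, -0.33 for Stag2 and -0.16 for Wapl. The calls of Pds5b (-0.18, adjusted p = 0.11) and Mau2 (0.06, adjusted p = 0.34), named here after their values were seen, ended. These lists and their calls are set beside all tested genes in the bar plot of calls by list.

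DNA replication genes gave 13 higher and 5 lower of 44 (40.9% passed, near the 42% of all tested genes; median 0.06). Rrm2, the small subunit of ribonucleotide reductase, was at 46.0 ± 2.19 CPM with BW723C86 and 32.4 ± 1.27 CPM with DMSO (0.51), and Fen1, the flap endonuclease (0.55), and Chaf1b, of a histone chaperone (0.48), rose as well. Of 20 E2F, pocket protein and MuvB genes, 4 rose and 4 fell (40% passed, near the 42% of all tested genes; median 0.01), with E2f8 (0.56) and E2f6 (0.42), both repressors, higher and Nfyb (-0.46), a subunit of the factor that binds CCAAT boxes, lower (-0.29 with the GC and length trends removed). With library totals, replication genes were 7 higher and 8 lower, and E2F and MuvB genes 2 higher and 7 lower. With the GC and length trends removed, 9 replication genes were lower, and 1 further mitosis gene was, while 22.2% of all tested genes were lower. Leaving out a library moved several of these counts by more than 1.5 times. The shares of all tested genes that passed in those fits or with library totals are not given here. The counts from those settings are therefore not read as results about the lists. Further mitosis genes were lower in 4 without BW723C86 replicate 1 or 3 or DMSO replicate 3 and in 5 without DMSO replicate 1. APC/C genes were higher in 5 without BW723C86 replicate 2, lower in 0 without DMSO replicate 1 and in 1 without BW723C86 replicate 3 or DMSO replicate 2 or 3. The single cohesin gene that rose, Mau2 (0.16), a loader subunit outside the naming rule, passed, of the 6 fits that leave out a library, only in that without BW723C86 replicate 2. Replication genes were higher in 6 without BW723C86 replicate 3 and in 8 without DMSO replicate 1 or 3, and lower in 3 without DMSO replicate 2. E2F and MuvB genes were higher in 2 without DMSO replicate 2 or 3 and lower in 2 without BW723C86 replicate 3 or DMSO replicate 1.

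**Figure D5:**
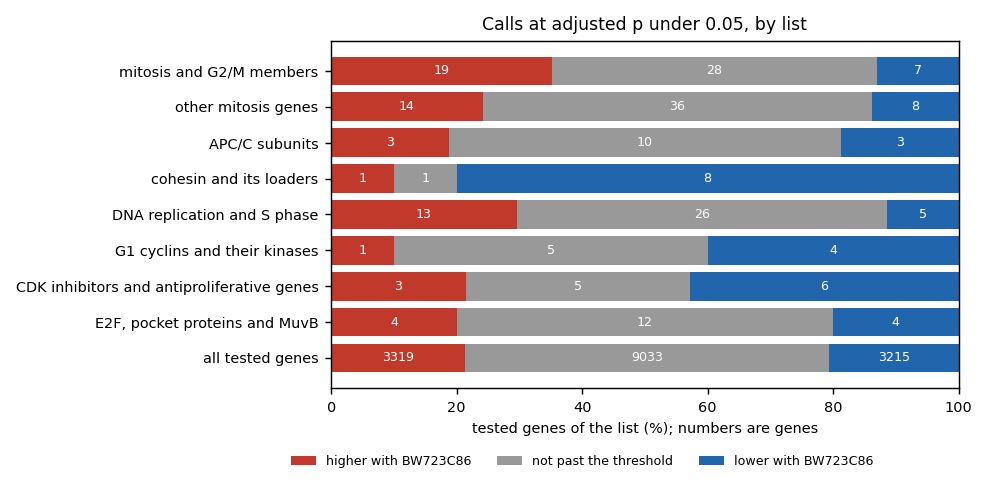
Share of tested genes (%) in each list that were higher (red), not past the threshold (grey) or lower (blue) with BW723C86 at adjusted p under 0.05, with gene numbers in the bars; the lowest bar is all 15567 tested genes. Mitosis and G2/M genes are 19 higher and 7 lower, and cohesin genes 1 higher and 8 lower.

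The regulators of G1, the phase in which a cell commits to division, fell in 4 of 10 genes and rose in 1 (50% passed, against 42% of all tested genes; median -0.07), and 1 of them, Ccnd2, changed by more than any of the 54. Ccnd2, cyclin D2, fell to 58.7 ± 1.63 CPM with BW723C86, against 180 ± 5.01 CPM with DMSO (log2 fold change -1.62; edgeR adjusted p = 2.4e-11). Ccnd3, cyclin D3, was at 219 ± 20.2 CPM with BW723C86 and 316 ± 9.27 CPM with DMSO (-0.53), and their kinase partner Cdk6 fell as well (-0.28). The cyclins of S phase entry divided, with Ccne2 lower (-0.39) and Ccne1 higher (0.26). Both calls ended without BW723C86 replicate 3 or DMSO replicate 1 (-0.33 in both fits for Ccne2; 0.21 and 0.24 for Ccne1), that of Ccne1 also without DMSO replicate 3 (0.24), and both ended with the GC and length trends removed (-0.10 and 0.16).

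CDK inhibitors and antiproliferative genes gave 3 higher and 6 lower of 14 (64.3% passed, against 42% of all tested genes; median -0.30). Cdkn1c, which encodes the inhibitor p57, was at 4.14 ± 0.456 CPM with BW723C86 and 0.598 ± 0.16 CPM with DMSO (2.80; edgeR adjusted p = 6.4e-07). Cdkn2c, which encodes the CDK4 and CDK6 inhibitor p18, rose (0.56), and so did Cdkn3, a phosphatase that acts on CDKs and is itself high in dividing cells (0.92). Cdkn1a, which encodes p21, fell to 372 ± 29.8 CPM with BW723C86, against 487 ± 5.09 CPM with DMSO (-0.39). The inhibitor genes Cdkn1b (-0.40) and Cdkn2d (-0.52) and the antiproliferative genes Gadd45a (-0.53), Ccng1 (-0.48) and Btg1 (-0.23) fell too, by less for Ccng1 (-0.30) and Btg1 (-0.15) with the GC and length trends removed. These calls of 9 genes held in each of the 6 fits that leave out a library.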

How the data were processed

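Per the labels' protocols, poly(A) RNA was made into strand-marked libraries with dUTP and read from both ends on an Illumina sequencer. The submitters' processing notes name fastp, HISAT2, StringTie and edgeR, without versions, and the builds GRCm39 and GRCh38; the use of strand in counting is not stated there. The authors deposited estimated counts per gene, all whole numbers. Low values pile up at multiples of 4 (4 occurs 4613 times, 3 occurs 2904 times and 5 occurs 2552 times), so the counts a fragment is worth are uncertain, and counts divided by 4 were an alternative. Symbols, lengths and GC content came from GENCODE M21 (GRCm38), and promoters from RefSeq GRCm38.p6, whose coordinates are its own and not those of the counted build.

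The main test was edgeR 4.0.16 in R 4.3.3 (TMM scaling, filterByExpr, robust quasi-likelihood F test, BW723C86 over DMSO, Benjamini-Hochberg adjustment over 15567 genes, threshold 0.05). DESeq2 1.42.0 and limma-voom 3.58.1 were alternatives, and all were tested on simulated data. Before averaging, replicates were compared: every pair differed beyond sampling noise (chi-square per degree of freedom of 2.46 to 8.88 with counts divided by 4). Pairs with BW723C86 replicate 2 had the highest values, 8.88 and 6.09, and the other pairs had 2.46 to 2.77. Counts per library ran from 58841307 to 75931615, and 4300 of 28822 identifiers had none.

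The genes and lists were chosen with earlier results of these data known. Values per library are given for a panel of 25 genes, the gene of smallest p in each role and the 3 largest changes in each direction, with others added where a result turns on them; from other lists, up to 3 genes of smallest p, and all passing G1 and CDK inhibitor genes with a mean of at least 1 CPM. Overlapping genes and near-identical copies, such as annotated pseudogenes of Ccnb1, Ccnb2 and Kif4, are uncertain.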

Additional observations from a re-analysis of the deposited data

How the results depend on the processing

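The numbers of genes that rose (19) and fell (7) were the same by DESeq2, limma-voom, RLE size factors and a non-robust fit, with every gene called the same way by the first 3. Upper-quartile scaling gave 21 and 7, library totals 13 and 10, and removal of the GC and length trends 17 and 6. Leaving out a library gave 14 to 20 higher and 5 to 8 lower, and the test against a fold change of 1.2 gave 6 higher and 2 lower. The matching shares of all tested genes with library totals and in fits that leave out a library are not given here. The median log2 fold change of 0.18 became 0.11 with library totals and 0.15 with the trends removed, and was 0.10 to 0.18 when a library was left out. Over all tested genes the median was 0.00 in the main test, -0.07 with library totals and -0.01 with the trends removed. The summed level had a log2 ratio of 0.054, and -0.019 with library totals. None of the genes that passed changed sign in any of these settings. Same-numbered libraries did not deviate together (correlations 0.031, -0.025 and -0.005), so the numbers were not taken as pairs; with a replicate block 18 were higher and 6 lower, and the median was 0.18. The cause of these shifts was not tested. The 9 calls that ended when some library was left out ran from -0.31 to 0.30 on the log2 scale; those of larger size held in each such fit.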
